A study of Rattus norvegicus with 30 samples.

Results

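A group of 8 genes of cytotoxic lymphocytes (Cd7, Nkg7, Gzma, Gzmb, Prf1, Xcl1, Klrd1 and Cd2) was followed in the liver of rats exposed to routine laboratory handling. The 8 genes were fixed by name, with earlier results of these data known. Every probe set that carries one of their symbols alone was taken. This gave 9 of the 31042 probe sets tested, with 2 for Gzmb and 1 for each of the other genes. A further probe set, which carries Gzmb together with another symbol, was left out.

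Female Sprague-Dawley rats, 10 weeks old, formed 3 groups of 10. The 4-day and 1-day groups were weighed, placed in restrainers and given water by oral gavage daily, and were bled from the tail vein on their last day of handling. Control rats received no handling. RNA from the left liver lobe was hybridised to an Affymetrix array of the rat genome, with 1 array for each rat. The labels give the 4-day group a time of 96 h and both other groups 24 h, so that duration of handling and time of collection cannot be told apart in the 4-day group. Both comparisons with control share the same 10 control rats.

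Cytotoxic lymphocytes, which are natural killer (NK) cells and cytotoxic T cells, kill infected or altered cells by releasing granules onto them. Perforin opens the target membrane, granzymes pass through and cut proteins inside, and surface receptors decide whether the granules are released. The liver sinusoids are known for a rich population of NK cells, which in rats were described early on as pit cells.

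Each array had been scaled to a mean intensity of 1, and array medians ran from 0.118 to 0.125 in rats handled for 4 days, from 0.118 to 0.124 in rats handled for 1 day and from 0.118 to 0.124 in control rats. No 2 arrays were identical, with correlations of 0.946 to 0.976 over all probe sets. The 13 measured hepatocyte genes ranked at the 99.65 to 99.98 percentile of all probe sets by mean level. The 8 cytotoxic lymphocyte genes ranked from 21.2 to 71.5 with a median of 56.2, whereas 22 genes of eye, brain, muscle and testis ranged from 11.2 to 71.1 with a median of 24.6. The file holds no detection calls, so a low intensity cannot be marked as present or absent. On the first principal component of all probe sets, control rats 1, 2 and 3 lay apart from the other 27 rats.

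After 4 days of handling all 9 probe sets were lower than in control rats, and Cd7 and Nkg7 passed the test. After 1 day, 5 probe sets were lower and 4 were higher, and none passed. Over all probe sets tested, 49.5% were lower after 4 days and 50.8% after 1 day. The median log2 fold change over the 8 genes was -0.34 after 4 days and -0.05 after 1 day, while the median over all probe sets was 0.00 in both. In whole tissue, fewer cells of a type and less RNA per cell cannot be told apart. Differences between groups were tested with limma on log2 intensity, two-sided, with Benjamini-Hochberg adjustment over all 31042 probe sets. Probe sets with an adjusted p under 0.1 were called. The p-values measure the spread between rats.

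The stretches before the start of 6 member genes were available in RefSeq (build GRCr8) and are shown because the members shared a direction after 4 days and each of these stretches holds the core letters of the RUNX motif. No such stretch was available for Cd7 or Klrd1. RUNX factors, with T-box factors, are known to act in cytotoxic lymphocytes. In the 250 bases before the start, TGTGGT or its reverse complement ACCACA was found in 6 of 6 member promoters and in 14.5% of 33469 promoters. The motif was chosen with these sequences at hand, so these shares are a description and not a test. The letters in capitals mark it, and each sequence is given 5′ to 3′ on the strand of the gene. For Nkg7 and Gzmb the whole 250 bases are printed and for the other genes the 60 bases around the match.
Nkg7 (chr1:102981247-102981496, + strand): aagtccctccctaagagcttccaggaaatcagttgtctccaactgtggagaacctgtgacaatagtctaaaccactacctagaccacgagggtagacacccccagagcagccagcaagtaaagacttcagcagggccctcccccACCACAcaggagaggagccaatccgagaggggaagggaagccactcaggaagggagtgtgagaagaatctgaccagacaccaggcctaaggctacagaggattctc
Gzmb (chr15:34462470-34462719, - strand): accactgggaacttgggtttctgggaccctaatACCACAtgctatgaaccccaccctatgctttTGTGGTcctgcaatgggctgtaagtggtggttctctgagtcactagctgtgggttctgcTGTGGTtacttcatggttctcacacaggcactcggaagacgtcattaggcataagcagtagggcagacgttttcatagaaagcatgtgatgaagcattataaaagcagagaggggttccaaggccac
Gzma (chr2:46485715-46485774, - strand): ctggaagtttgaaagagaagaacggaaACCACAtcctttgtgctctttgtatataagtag
Prf1 (chr20:29788879-29788938, + strand): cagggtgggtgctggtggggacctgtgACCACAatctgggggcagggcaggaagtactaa
Xcl1 (chr13:79785623-79785682, - strand): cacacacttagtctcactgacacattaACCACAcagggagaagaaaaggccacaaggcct
Cd2 (chr2:191412660-191412719, - strand): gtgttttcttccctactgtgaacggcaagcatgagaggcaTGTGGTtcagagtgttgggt

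The match began 106 bases before the start in Nkg7, 51 in Gzma, 134 in Prf1, 215 in Xcl1 and 20 in Cd2, and Gzmb held 3 matches, at 217, 186 and 127 bases before the start. The other motifs were searched in the same windows on both strands. The ETS letters AGGAAG were found in 3 of 6 member promoters (Nkg7, Prf1 and Xcl1), against 29.5% of all promoters. The STAT letters TTCNNNGAA were found in Nkg7 and Gzmb (7.67% of all promoters), the AP-1 letters TGANTCA in Gzmb (6.34%) and the NFAT letters TGGAAA in Gzma (19.7%). The T-box letters GGTGTGA (3.22%), the CRE letters TGACGTCA (1.59%) and the glucocorticoid receptor letters TGTTCT (17.5%) were found in 0 of 6. No RUNX match overlapped a match of the other 7 motifs, and a match describes the letters and not a bound site.

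**Figure D1:**
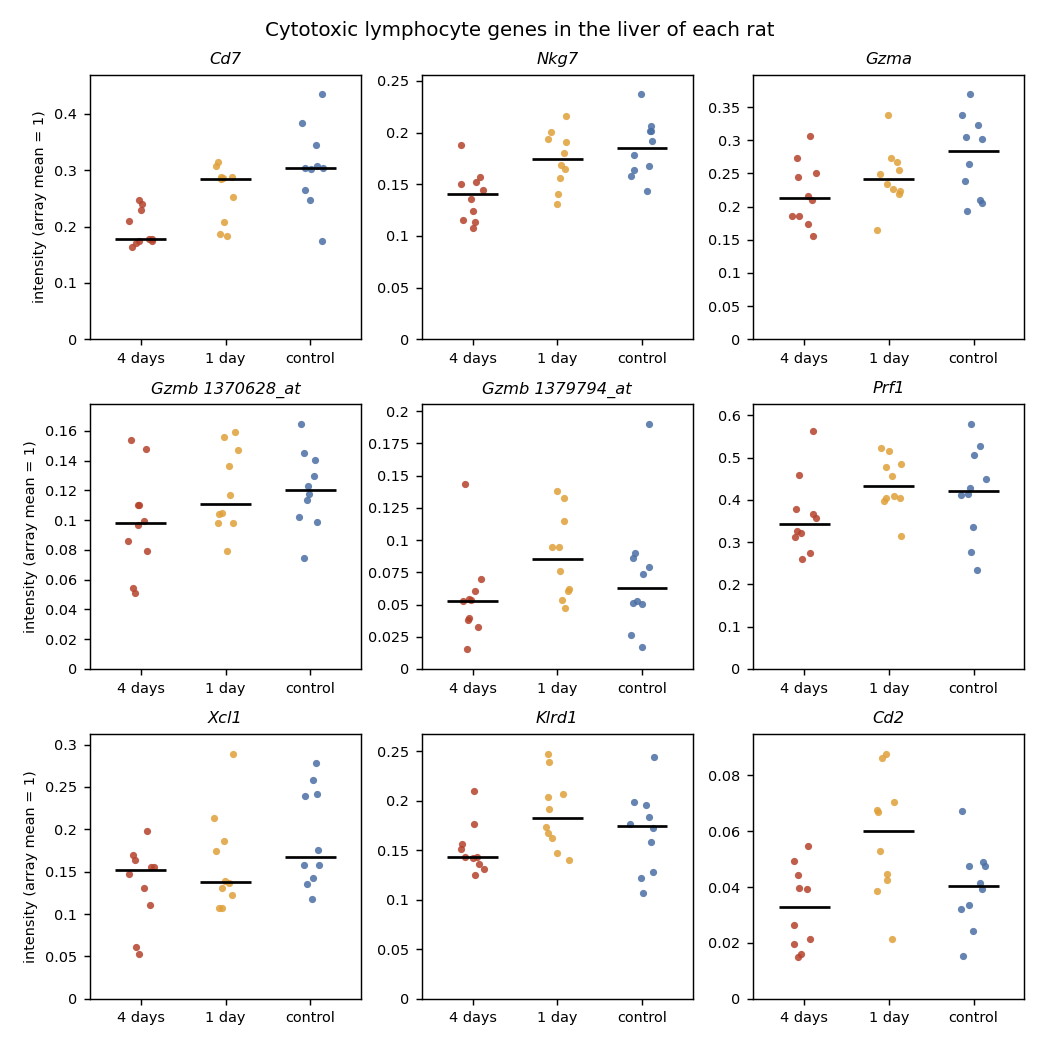
Intensity (array mean = 1, linear axis starting at 0) of the 9 probe sets in each of 30 rats, with 1 point per rat, a bar at the group median and 10 rats in each of the 4-day, 1-day and control groups. The 10 Cd7 points after 4 days lie between 0.163 and 0.246, below the control median of 0.304.

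Cd7, which encodes an immunoglobulin-family surface protein of T cells and NK cells, showed the clearest difference. Its intensity (lowest, median, highest) was 0.163, 0.178 and 0.246 in rats handled for 4 days, 0.183, 0.285 and 0.314 in rats handled for 1 day, and 0.175, 0.304 and 0.435 in control rats. All 10 rats handled for 4 days lay below the control median, 4 of them lay below every control rat, and 9 of 10 control rats lay above every rat handled for 4 days. The log2 fold change was -0.62 after 4 days (SE 0.13, limma adjusted p = 0.0417) and -0.23 after 1 day (SE 0.13, adjusted p = 0.622). The study's text gives the opposite direction for this gene and for C1qc, described further on, and the deposited intensities were used here as they stand. Without control rats 1, 2 and 3 the 4-day value was -0.65, and it was still called.

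Nkg7, which encodes a membrane protein of cytotoxic granules that mouse lymphocytes need for efficient granule release, was the other gene called lower after 4 days. Its intensity (lowest, median, highest) was 0.108, 0.140 and 0.188 after 4 days, 0.131, 0.174 and 0.216 after 1 day, and 0.144, 0.185 and 0.237 in control rats. The groups overlapped, with 9 of 10 rats handled for 4 days below the control median and 5 below every control rat. The log2 fold change was -0.42 after 4 days (SE 0.11, limma adjusted p = 0.0902) and -0.09 after 1 day (SE 0.11, adjusted p = 0.842). This call lay close to the threshold and was lost when any 1 of 15 rats was left out, with an adjusted p of up to 0.156. It was also lost with the t-test of the methods (adjusted p = 0.126) and the exact rank-sum test (adjusted p = 0.130). Cd7 was called whichever of the 30 rats was left out, but when only the 4-day and control groups entered the limma fit, neither Cd7 (adjusted p = 0.106) nor Nkg7 (adjusted p = 0.188) was called.

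Thus 2 of 9 probe sets were called lower after 4 days, against 0.370% of all probe sets, and the other 7 were not called. At an unadjusted p under 0.05, 4 of 9 probe sets (Cd7, Nkg7, Gzma and Xcl1) were lower after 4 days, against 5.89% of all probe sets. After 1 day limma called 0 of 9, against 0.0902% of all probe sets, and 0 of 9 reached an unadjusted p under 0.05, against 9.33% of all probe sets. The t-test of the methods and the exact rank-sum test also called 0 of 9 after 1 day. Since the members were chosen with earlier results of these data known, these shares are a description and not an independent test.

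A sign of RNA integrity also differed between groups. The array carries Gapdh control probe sets at both ends of the transcript, and their 3′ over 5′ ratio on the log2 scale (lowest, median, highest) was 0.70, 0.74 and 0.96 in rats handled for 4 days, 0.66, 0.75 and 0.83 in rats handled for 1 day, and 0.55, 0.66 and 0.70 in control rats. All 10 rats handled for 4 days lay above every control rat. With this ratio as a covariate, neither Cd7 nor Nkg7 was called after 4 days. The log2 fold change was -0.57 for Cd7 (limma p = 0.00257, adjusted p = 0.363), against -0.62 without the covariate. For Nkg7 it was -0.48 (limma p = 0.00145, adjusted p = 0.326), against -0.42. Because the ratio did not overlap between the 4-day and control groups, the fit can hardly separate it from handling. The study reports good quality and high RNA integrity numbers for all samples. The part of the ratio in the result was not tested further.

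**Figure D2:**
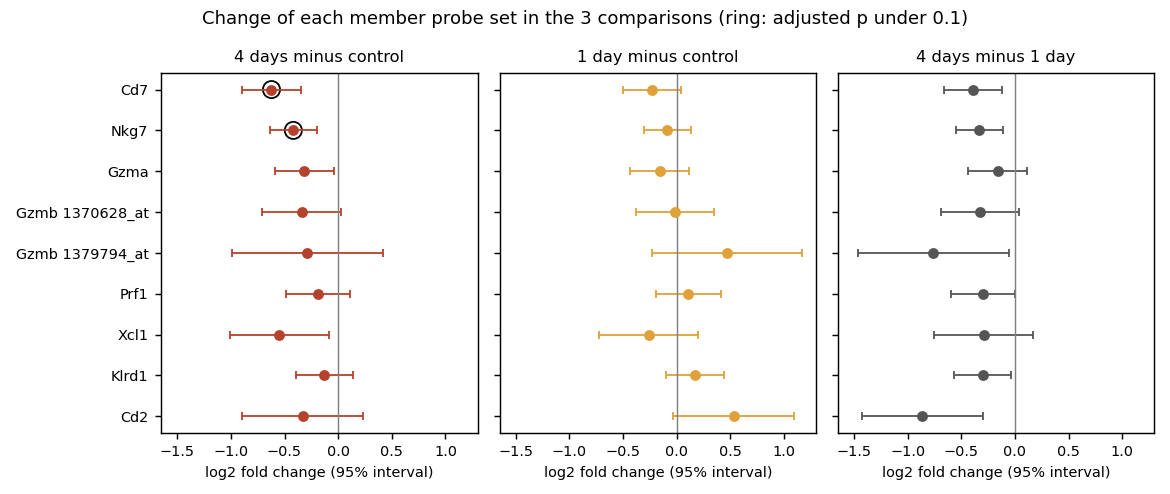
Log2 fold change of each probe set with its 95% interval from limma for 4 days minus control, 1 day minus control and 4 days minus 1 day, with rings around the 2 calls at an adjusted p under 0.1. All 9 points lie left of 0 in the panels of 4 days minus control and 4 days minus 1 day, and 5 of 9 do for 1 day minus control.

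Granzymes and perforin are the killing agents of the granule. Gzma, a protease that cuts after basic residues, had an intensity (lowest, median, highest) of 0.156, 0.213 and 0.306 after 4 days, 0.165, 0.242 and 0.338 after 1 day, and 0.194, 0.283 and 0.370 in control rats. Although the groups overlapped, 9 of 10 rats handled for 4 days and 9 of 10 handled for 1 day lay below the control median. Its log2 fold change was -0.32 after 4 days (SE 0.13, limma adjusted p = 0.351) and -0.16 after 1 day (SE 0.13, adjusted p = 0.758).

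Gzmb encodes the granzyme that cuts after aspartate and starts apoptosis in the target cell. Its brighter probe set, 1370628_at, had 0.0512, 0.0979 and 0.154 after 4 days, 0.0790, 0.111 and 0.159 after 1 day, and 0.0743, 0.120 and 0.165 in control rats (lowest, median, highest). Its dimmer probe set, 1379794_at, had 0.0158, 0.0530 and 0.143 after 4 days, 0.0476, 0.0853 and 0.138 after 1 day, and 0.0172, 0.0632 and 0.190 in control rats. The groups overlapped widely in both, and the 2 probe sets differed in sign after 1 day.
The log2 fold change of 1370628_at was -0.34 after 4 days (SE 0.18, limma adjusted p = 0.478) and -0.01 after 1 day (SE 0.18). That of 1379794_at was -0.29 after 4 days (SE 0.34, limma adjusted p = 0.809) and 0.47 after 1 day (SE 0.34, adjusted p = 0.706). Single rats moved these values, to between -0.49 (without control rat 2) and -0.10 (without control rat 8) after 4 days, and to between 0.27 and 0.66 without the same rats after 1 day. Across rats, after group means were removed, the 2 probe sets correlated at only r = 0.15, and a near-identical copy may share their signal, so the level of Gzmb is uncertain.

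Prf1, which encodes perforin, was the brightest member. Its intensity (lowest, median, highest) was 0.260, 0.342 and 0.564 after 4 days, 0.315, 0.433 and 0.523 after 1 day, and 0.235, 0.421 and 0.580 in control rats. The range after 4 days lay within that of the controls, and 8 of 10 rats handled for 4 days were below the control median. Its log2 fold change was -0.19 after 4 days (SE 0.15, limma adjusted p = 0.668) and 0.11 after 1 day (SE 0.15, adjusted p = 0.856).

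Xcl1 encodes lymphotactin, a chemokine by which activated NK and T cells attract dendritic cells that carry the receptor Xcr1. Its intensity (lowest, median, highest) was 0.0528, 0.152 and 0.198 after 4 days, 0.107, 0.138 and 0.289 after 1 day, and 0.118, 0.167 and 0.278 in control rats. The difference after 4 days came with 2 rats that lay far below the rest and with 4 control rats above every rat handled for 4 days. The log2 fold change was -0.55 after 4 days (SE 0.23, limma adjusted p = 0.333) and -0.26 after 1 day (SE 0.23, adjusted p = 0.759).

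Klrd1 and Cd2, like Cd7, encode surface proteins. Klrd1 encodes CD94, which pairs with NKG2 proteins to read class I molecules on other cells. It had 0.125, 0.143 and 0.210 after 4 days, 0.140, 0.182 and 0.248 after 1 day, and 0.107, 0.174 and 0.244 in control rats (lowest, median, highest). The control range covered the whole 4-day range, and the log2 fold change was -0.13 after 4 days (SE 0.13, limma adjusted p = 0.756) and 0.17 after 1 day (SE 0.13, adjusted p = 0.720).

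Cd2 encodes an adhesion receptor of T and NK cells, whose ligand in rodents is CD48. It was the dimmest member, at 0.0151, 0.0329 and 0.0546 after 4 days, 0.0213, 0.0600 and 0.0877 after 1 day, and 0.0155, 0.0404 and 0.0671 in control rats. The lowest rat of every group was below the 1st percentile of all probe sets on their array. After 1 day, 4 of 10 rats lay above every control rat, and the log2 fold change was 0.53 (SE 0.28, limma adjusted p = 0.574). After 4 days it was -0.33 (SE 0.28, adjusted p = 0.692).

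The direct comparison of 4 days with 1 day asked whether the direction depended on the duration of handling. By mean log2 intensity all 9 probe sets were lower after 4 days than after 1 day, against 48.5% of all probe sets, and the median log2 fold change over the 8 genes was -0.31. Of the lists described further on, 7 of 9 neutrophil genes (median -0.26), 14 of 16 lymphocyte cytokines and chemokines (-0.24) and 9 of 10 macrophage genes (-0.21) were also lower. Only 2 of 13 hepatocyte genes (0.03) and 1 of 7 erythroid genes (0.08) were lower. The remaining lists had medians from -0.18 to -0.03. No probe set of any gene was called in this comparison by limma (0% of 31042), nor any member by the t-test of the methods or the exact rank-sum test. At an unadjusted p under 0.05, 5 of 9 probe sets were lower, against 2.57% of all probe sets, and these were Cd7, Nkg7, Klrd1, Cd2 and the Gzmb probe set 1379794_at.

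Cd2 had a log2 fold change of -0.86 (95% interval -1.43 to -0.30, p = 0.00392, limma adjusted p = 0.947). All 10 rats handled for 4 days lay below the median of the rats handled for 1 day, and 5 of the rats handled for 1 day lay above every rat handled for 4 days. Without an offset this was the largest of the 9 differences, but not with an offset of 0.05 or 0.5 added before log2. Cd7 differed by -0.39 (95% interval -0.66 to -0.12) and Nkg7 by -0.33 (-0.55 to -0.11). For Klrd1 the difference was -0.30 (-0.57 to -0.03) and for Prf1 -0.30 (-0.60 to 0.00). The Gzmb probe sets differed by -0.76 (-1.46 to -0.06) for 1379794_at and -0.33 (-0.69 to 0.04) for 1370628_at, Gzma by -0.16 (-0.44 to 0.11) and Xcl1 by -0.29 (-0.75 to 0.17). The intervals of Prf1, Gzma, Xcl1 and 1370628_at included 0. Xcl1 was lower by its mean only, since its median was 0.152 after 4 days and 0.138 after 1 day and 4 of 10 rats handled for 4 days lay below the 1-day median. Without 4-day rat 2 its difference was -0.15.

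When the 8 genes were averaged on the log2 scale, most rats handled for 4 days were low and rats handled for 1 day overlapped the controls. The mean (lowest, median, highest) was -3.42, -2.86 and -2.56 in rats handled for 4 days, -2.76, -2.54 and -2.28 in rats handled for 1 day, and -2.80, -2.58 and -2.19 in control rats. Below the control median lay 9 of 10 rats handled for 4 days and 2 of 10 rats handled for 1 day. At least 7 of the 9 probe sets were below their control medians in 8 rats handled for 4 days, 2 handled for 1 day and 1 control rat.

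Within groups the members varied together only in part. After group means were removed, 28 of 36 pairs of probe sets had a Pearson's r above 0 over the 30 rats, with a median of 0.16 and a range of -0.40 to 0.64. Pairs of other probe sets were not counted in this way, so this share has no background beside it. Prf1 and Klrd1 had r = 0.64 (permutation p = 0.00035, adjusted over 36 pairs p = 0.0126) and Spearman's rho = 0.59 (permutation p = 0.00088, adjusted p = 0.0158). It was 0.94 in rats handled for 4 days, 0.17 in rats handled for 1 day and 0.71 in control rats, and 0.53 over all without the 2 farthest rats.
Gzma and Prf1 had r = 0.59 (permutation p = 0.00153, adjusted p = 0.0275) and rho = 0.69 (permutation p = 0.00011, adjusted p = 0.00396). Here r was 0.55, 0.41 and 0.71 in the 4-day, 1-day and control groups, and 0.63 without the 2 farthest rats. The other 34 pairs did not pass the adjustment. Prf1 followed the mean of the other genes most closely (r = 0.66), and Cd7, the gene with the clearest fall, followed it weakly (r = 0.26).

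**Figure D3:**
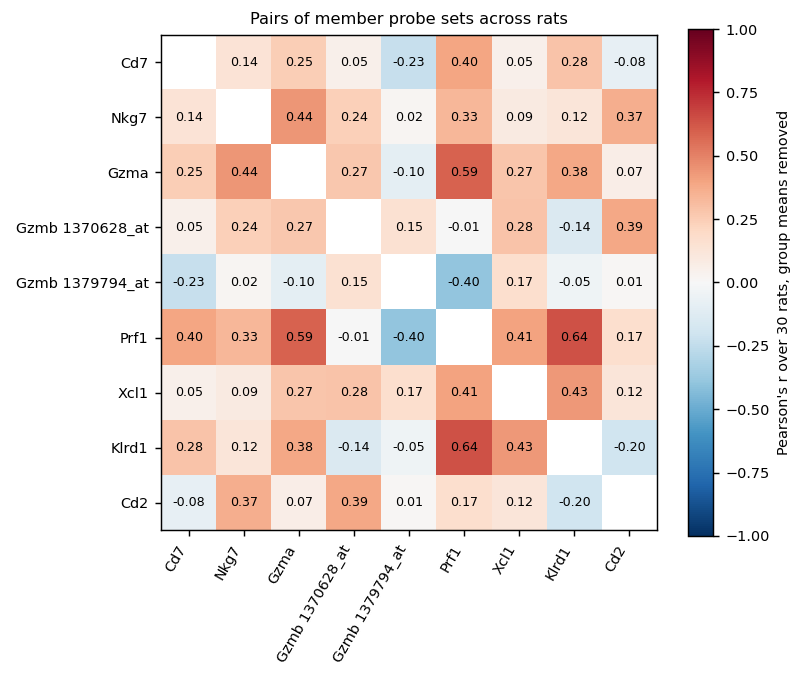
Pearson's r between each pair of the 9 probe sets over 30 rats after group means were removed, on a colour scale from -1 to 1. Prf1 has the highest values, 0.64 with Klrd1 and 0.59 with Gzma, and the 2 Gzmb probe sets share 0.15.

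The 10 genes most like the mean of the members across rats, over 20817 probe sets of other genes and with group means removed, were Ccl5 (r = 0.82), Fcmr (0.76), Itgb2 (0.69), Mrc1 (0.68), Ripor1 (0.67), Batf (0.67), Sergef (0.67), Ap1g2 (0.66), Ptprcap (0.66) and Thbd (0.66). The central 95% of probe sets lay between -0.40 and 0.44. Ccl5 encodes a chemokine that cytotoxic lymphocytes store and release, Itgb2 the common chain of leukocyte integrins, and Mrc1 the mannose receptor of macrophages and sinusoidal endothelium. For Ccl5 the value was 0.84 in rats handled for 4 days, 0.77 in rats handled for 1 day and 0.84 in control rats. Fcmr belongs to the B cell list described further on. By list, the median r was 0.48 for macrophage genes, 0.42 for CD2 and SLAM partners and 0.29 for B cell genes. It was 0.26 for NK cell receptors and adaptors and 0.08 for granule partners, and the other lists had medians from -0.14 to 0.18. These values are a description, since all points share the same arrays.

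Other genes of the pathway were read from fixed lists, and no gene of any list was called in any of the 3 comparisons. Of 15 measured granule partners, 11 were lower and 4 higher after 4 days (median -0.11). At an unadjusted p under 0.05, 3 were lower, against 5.89% of all probe sets. Srgn, which encodes the proteoglycan that packs granules, had 0.919, 1.40 and 1.66 after 4 days, 1.53, 1.69 and 2.00 after 1 day, and 1.37, 1.54 and 2.12 in control rats (lowest, median, highest), with log2 fold changes of -0.28 for 4 days and 0.10 for 1 day against control. It differed by -0.38 between 4 days and 1 day (p = 0.000433, limma adjusted p = 0.829). Gzmk, a further granzyme, had a log2 fold change of -0.13 after 4 days and 0.18 after 1 day, and Cst7, an inhibitor of granule proteases, -0.67 and -0.34.

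Of 16 lymphocyte cytokines and chemokines, 14 were lower after 4 days (median -0.27) and 8 after 1 day (median 0.03). At an unadjusted p under 0.05, 4 and 1 were lower, against 5.89% and 4.86% of all probe sets. Ccl4, a chemokine of activated lymphocytes and macrophages, had a log2 fold change of -0.51 after 4 days (limma adjusted p = 0.124) and -0.26 after 1 day. Il18, a cytokine that primes NK cells, had -0.35 and -0.17 for the same comparisons, and Ccl5 had -0.17 and 0.17.

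For receptors and regulators the medians after 4 days ran from -0.06 to 0.01. Of 15 NK cell receptors and adaptors, 9 were lower after 4 days (median -0.06) and 3 after 1 day (median 0.13). Klre1 had a log2 fold change of -0.28 after 4 days and 0.25 after 1 day, Tyrobp, an adaptor shared with macrophages, -0.23 and -0.01, and Cd96 0.43 and 0.14. The mean intensity over all rats was 1.07 for Tyrobp but only 0.046 for Klre1 and 0.023 for Cd96. Of 14 genes of T cells, 10 were lower after 4 days (median -0.05) and 7 after 1 day (median 0.01), where Cd28 had -0.57 and -0.37, Cd6 -0.37 and -0.38, and Cd3e, a chain of the T cell receptor complex, 0.27 and -0.17.

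Of 12 regulators, 5 were lower after 4 days (median 0.01) and 3 after 1 day (median 0.09). Id2, a factor that NK cells need, had a log2 fold change of 0.39 after 4 days and 0.15 after 1 day, Bcl11b 0.46 and -0.26, and Stat4 0.42 and 0.16. Of 7 partners of CD2 and the SLAM receptors, 5 were lower after 4 days (median -0.05) and 2 after 1 day (median 0.07). Cd48, the ligand of CD2, had -0.28 and -0.01, Cd53 -0.18 and 0.07, and Fyb1 0.07 and 0.21.

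Markers of other leukocytes were lower in part. Of 10 Kupffer cell and macrophage genes, 7 were lower after 4 days (median -0.20) and 2 after 1 day (median 0.06). After 4 days 5 were lower at an unadjusted p under 0.05, against 5.89% of all probe sets. The mean log2 intensity of this list in a rat ran from 1.06 to 1.42 after 4 days, from 1.20 to 1.86 after 1 day and from 1.16 to 1.66 in control rats. The complement genes C1qc and C1qb, which the liver makes in macrophages, had log2 fold changes of -0.38 (limma adjusted p = 0.112) and -0.29 after 4 days and -0.03 and 0.04 after 1 day, and Cd68 had -0.33 and -0.01. The part of other leukocytes in the members' values was not tested.

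Of 10 B cell genes, 8 were lower after 4 days (median -0.13), and the list level in a rat ran from -3.79 to -3.14 after 4 days, from -3.61 to -3.05 after 1 day and from -3.55 to -3.05 in control rats. Jchain, Ms4a1 and Blk had log2 fold changes of -0.34, -0.18 and -0.21 after 4 days and -0.16, 0.04 and 0.06 after 1 day. Of 9 neutrophil genes, 5 were lower after 4 days (median -0.04) and 2 after 1 day (median 0.15), with Np4 at -0.35 and 0.45, Mmp8 at -0.31 and -0.16, and Camp at 0.07 and 0.45.

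Hepatocyte and red cell genes did not share the direction. Of 13 hepatocyte genes, 3 were lower after 4 days (median 0.05) and 4 after 1 day (median 0.02), with Hp, Apob and Cyp2e1 at 0.10, 0.08 and 0.08 after 4 days and 0.06, 0.06 and 0.04 after 1 day. Of 7 erythroid genes, 1 was lower after 4 days (median 0.15) and 2 after 1 day (median 0.15), with Hba-a3 at 0.44 and 0.36, Slc4a1 at 0.48 and 0.33, and Hemgn at 0.07 and -0.35. Of the 22 genes of eye, brain, muscle and testis, 12 were lower after 4 days (median -0.17) and 12 after 1 day (median -0.11), where Mbp had 1.13 and 0.44, Crygd -0.70 and -0.51, and Gfap 0.30 and 0.41. Only the member genes, the lymphocyte cytokines and chemokines and the macrophage genes had a lower 4-day median than this list.

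**Figure D4:**
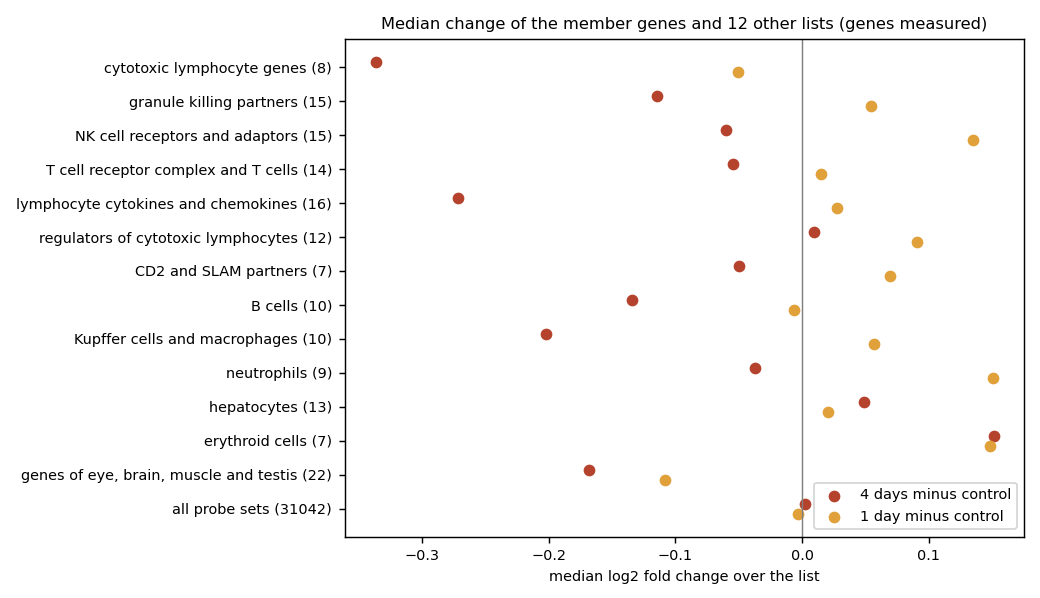
Median log2 fold change of the 8 cytotoxic lymphocyte genes, of 12 other lists and of all 31042 probe sets, for 4 days minus control and 1 day minus control, with the number of measured genes in parentheses. The cytotoxic lymphocyte genes lie at -0.34 after 4 days and -0.05 after 1 day, and lymphocyte cytokines and chemokines at -0.27 and 0.03.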

How the data were processed

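Total RNA of the left liver lobe was labelled by the authors with a 3′ in vitro transcription method and hybridised to 30 Affymetrix arrays of the rat genome. The deposited table gives a linear intensity for each probe set on each array, with a mean of 1 on every array. This scaling was read from the values. The study's methods name Affymetrix GeneChip Operating Software for the analysis of the arrays, and the summary and scaling settings are not given in the sources used here. The authors' log ratios were not used here.

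Intensities were taken to log2 with an offset of 0. The 57 Affymetrix control probe sets among 31099 were not tested. Of the 31042 tested, 20826 carried 1 gene symbol, 436 several and 9780 none, and 20758 matched a RefSeq gene. All 3 groups entered a single model in limma 3.58.1 (lmFit and eBayes) in R 4.3.3, two-sided, with Benjamini-Hochberg adjustment over all tested probe sets and a threshold of 0.1. The model was first tested on simulated arrays with known changes. Python 3.11.15 and matplotlib 3.10.9 drew the figures. The precision is limited by the number of arrays.

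Members, lists and motifs were chosen with earlier results of these data known, and the motifs with the promoter sequences at hand. Genes named are all members, the 3 genes of each list with the smallest p in the 3-group F test, any list gene called against control, and the 10 most like genes. A list gene with several probe sets is represented by the brightest. Correlations between members were tested with 100000 permutations. Alternatives were offsets of 0.05 and 0.5, quantile and cyclic loess normalization, an intensity trend, array weights, a replicate block, fits of only the 2 groups compared, the Gapdh ratio as a covariate, leaving out the dimmest 40% of probe sets, 3 control rats or each rat in turn, the t-test of the methods, the exact rank-sum test, an adjusted p under 0.05 and the brightest probe set per gene.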

Additional observations from a re-analysis of the deposited data

How the results depend on the processing

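After 4 days of handling, 2 of the 9 probe sets were called, Cd7 and Nkg7. The count was 2 with both other offsets, both other normalizations, the intensity trend, array weights, without the dimmest 40% of probe sets, without control rats 1, 2 and 3, and with the brightest probe set per gene. The size of the changes shrank with the offset, which draws low values together, to -0.21 for Cd7 and -0.10 for Nkg7 at an offset of 0.5. The count was 1, Cd7 alone, with the replicate block, the t-test of the methods, the exact rank-sum test and an adjusted p under 0.05. It was 0 when only the 2 groups compared were fitted (lowest member adjusted p = 0.106) and with the Gapdh ratio as a covariate (lowest member adjusted p = 0.326). Under the replicate block the adjusted p was 0.0841 for Cd7 and 0.115 for Nkg7. What rats with the same number have in common beyond it is not given in the labels. Their mean correlations of deviations were 0.051 between 4 days and 1 day, 0.034 between 4 days and control and 0.032 between 1 day and control. Mean correlations of rats with different numbers were not computed. Among the 10 rats of the other group, 5, 2 and 6 of 10 rats correlated best with their own number. A random choice would match the own number in about 1 of 10 rats. The main model holds no term for this number. The part of this number in the result was not tested further. Leaving out each rat in turn gave counts of 1 to 2. Cd7 stayed called each time (adjusted p from 0.0233 to 0.0790), and Nkg7 was lost without control rat 2, 3, 4, 7, 8, 9 or 10, without 1-day rat 5, or without 4-day rat 1, 2, 3, 5, 6, 8 or 9 (adjusted p of up to 0.156). The cause of these losses was not tested. After 1 day the count was 0, and between 4 days and 1 day it was also 0, under each of these settings. Of 810 values with 1 rat left out, 795 kept their side of the threshold and 15, all of Nkg7, fell short of it. Of 396 values under the other settings 388 kept it and 8 fell short. Only the 4-day values of Cd7 and Nkg7 were called in the main fit, so most of these values had no call to lose. For Nkg7 the call was lost in 15 of the 30 fits with 1 rat left out. No called value changed sign. The uncalled 1-day value of the Gzmb probe set 1370628_at crossed 0 without some rats (-0.09 to 0.05) and with the Gapdh ratio (0.07), and that of Prf1 changed sign with the Gapdh ratio, at a value that rounds to 0.00. Cd2 and the Gzmb probe set 1379794_at fell among the dimmest 40% of probe sets, where signal over background limits what can be read. The same limit holds for list genes with a mean intensity near that of Cd2 (0.043). Among these were Klre1 (0.046), Cd96 (0.023), Cst7 (0.056), Cd28 (0.041), Bcl11b (0.047), Np4 (0.040), Camp (0.028) and Crygd (0.033).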
